A study of Mus musculus with 13 samples.

Results

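The comparison covered 2 brain regions of wild-type mice of the inbred strain FVB/N, the hippocampus and the prefrontal cortex (PFC). Its members were the small RNA libraries that the labels gave as wild-type FVB/N, which were 6 of the 13 libraries of the series, 3 from the hippocampus and 3 from the PFC, with each library from a single mouse. The other 7 libraries came from TgR mice, which carry the same strain background and overexpress a human AChE-R transgene under the cytomegalovirus promoter, and their 3 hippocampal and 4 PFC libraries were used for the same regional contrast in other mice, for the test of its difference between the lines and in an alternative fit of all 13 libraries. The labels give no treatment, age or sex, and do not say whether the hippocampus and the PFC of FVB/N mice were taken from the same animals. The question was which mature miRNAs differ in level between the hippocampus and the PFC of the strain that served the study as its control.

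miRNAs are short RNAs cut from hairpin precursors, and each hairpin can release a 5p and a 3p strand (arm). The loaded strand pairs with transcripts mainly through its seed, the bases 2 to 8, so that miRNAs with the same seed can act on overlapping targets, and it lowers their stability or translation. In the brain, some miRNAs are shared by most neurons, some follow neuronal activity, and others mark glia, choroid plexus, blood vessels or blood, so the miRNA content of a region depends on its cells as well as on their state. In whole tissue, a smaller number of cells of a type and less of an RNA per cell cannot be told apart.

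The mature sequences on which the results turn are shown with the seed in capitals, taken from RefSeq on the assembly GRCm38.p6, and those that share a seed follow each other, since arms, copies and families with like sequences moved together in some cases and apart in others. miR-219a-2-3p and both arms of miR-187 are named without a sequence.
miR-132-3p: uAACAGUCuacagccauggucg
miR-212-3p: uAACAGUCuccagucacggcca
miR-132-5p: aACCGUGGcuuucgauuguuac
miR-212-5p: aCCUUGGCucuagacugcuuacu
miR-7a-5p: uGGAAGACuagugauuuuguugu
miR-7b-5p: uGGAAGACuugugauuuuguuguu
miR-7a-2-3p: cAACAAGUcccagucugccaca
miR-7a-1-3p: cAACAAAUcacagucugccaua
miR-99a-5p: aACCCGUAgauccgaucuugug
miR-100-5p: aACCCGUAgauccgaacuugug
miR-99b-5p: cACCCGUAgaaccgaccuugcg
miR-219a-5p: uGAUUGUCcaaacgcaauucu
miR-338-5p: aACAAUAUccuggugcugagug
miR-184-3p: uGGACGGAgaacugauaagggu
miR-335-5p: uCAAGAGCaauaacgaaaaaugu
miR-135a-1-3p: uAUAGGGAuuggagccguggcg
miR-200a-3p: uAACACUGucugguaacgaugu
miR-141-3p: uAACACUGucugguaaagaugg
miR-200b-3p: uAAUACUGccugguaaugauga
miR-429-3p: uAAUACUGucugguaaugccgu
miR-200c-3p: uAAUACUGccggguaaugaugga
miR-24-1-5p: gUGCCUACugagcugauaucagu
miR-24-2-5p: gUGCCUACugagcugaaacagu

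The 6 libraries held 7017152 to 9481358 counts each when every mature miRNA was counted at a single hairpin, and 979 to 1031 mature miRNAs were listed per library, 1281 over all 6. At this depth 3 counts corresponded to 0.316 to 0.428 CPM (counts scaled to a common library size), a floor that covers counting error only, since the reads carried no molecular identifiers. Levels are given in CPM after TMM scaling, in the order of replicates 1, 2 and 3, and differences as log2 fold changes of hippocampus minus PFC with their SE, so that positive values stand for a higher level in the hippocampus. The rank correlation of the 615 tested miRNAs was 0.984 to 0.987 within hippocampal libraries, 0.974 to 0.985 within PFC libraries and 0.970 to 0.979 between the regions. The first principal component, with 40.8% of the variance, separated the regions, and the second, with 24.5%, set PFC replicate 3 at -10.1 apart from the other libraries, between -2.38 and 6.34. All 22 miRNAs that passed the test also passed without PFC replicate 3. Both regions carried high levels of the neuronal miRNAs: the 17 tested arms of miR-124, miR-9, miR-128, miR-218, miR-137, miR-138, miR-153 and miR-129 summed to 327000 to 373996 CPM in the hippocampus and to 372244 to 459328 CPM in the PFC.

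Most miRNAs were at like levels in both regions, and few differed strongly. Of the 615 tested miRNAs, 22 passed the test (edgeR's quasi-likelihood test, Benjamini-Hochberg adjusted p under 0.05), which is 3.58% of those tested: 13 were higher in the hippocampus (2.11%) and 9 were higher in the PFC (1.46%). Among these 22, the largest differences on the hippocampal side were those of miR-200a-5p, miR-7240-5p, miR-187-5p, miR-187-3p and miR-200a-3p. On the PFC side they were those of miR-184-3p, miR-135a-1-3p and miR-1941-3p. The calls at the highest levels were miR-99a-5p and miR-7a-5p, higher in the hippocampus, and miR-132-5p, higher in the PFC. The 22 came from 18 hairpins, 20 of them differed by at least 2-fold, and 102 miRNAs had an unadjusted p under 0.05. None of the 22 overlapped between the regions. Over all tested miRNAs, the libraries did not overlap for 78 that were higher in the hippocampus (12.7%) and for 55 that were higher in the PFC (8.94%). The median log2 fold change of all tested miRNAs was 0.012, and 76.4% of them differed by less than 0.5 on the log2 scale. The number of calls depended on single libraries. It was 51 without PFC replicate 3, 8 without PFC replicate 2, 13, 9 and 12 without hippocampal replicate 1, 2 and 3, and 27 without PFC replicate 1. Of the 22, 7 passed in all of these 6 fits, namely miR-187-3p, miR-187-5p, miR-184-3p, miR-7a-2-3p, miR-7a-5p, miR-132-3p and miR-219a-2-3p.

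**Figure D1:**
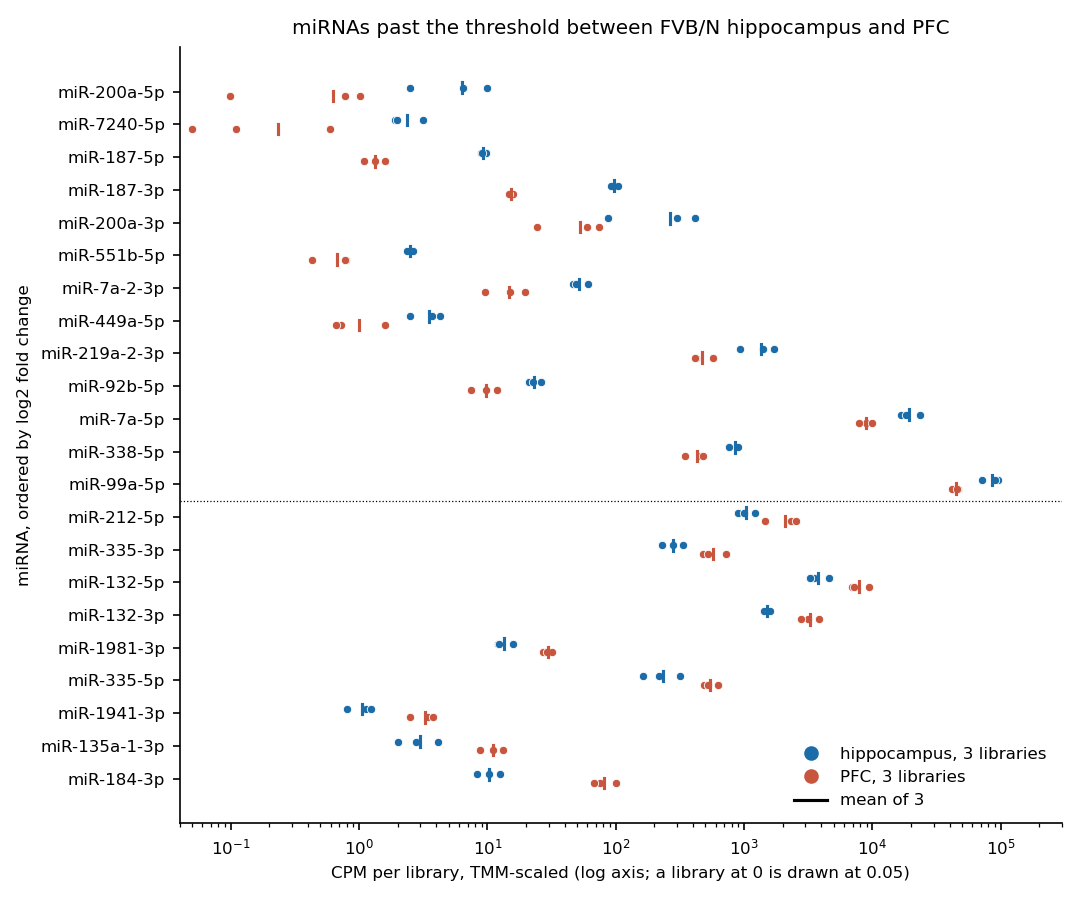
The plot shows the level of the 22 miRNAs past the threshold in each of the 6 FVB/N libraries, in CPM on a log axis, with hippocampal libraries in blue, PFC libraries in red and a bar at each mean of 3. The 13 miRNAs above the dotted line were higher in the hippocampus and the 9 below it were higher in the PFC, and no PFC library overlaps a hippocampal one in any row.

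**Figure D2:**
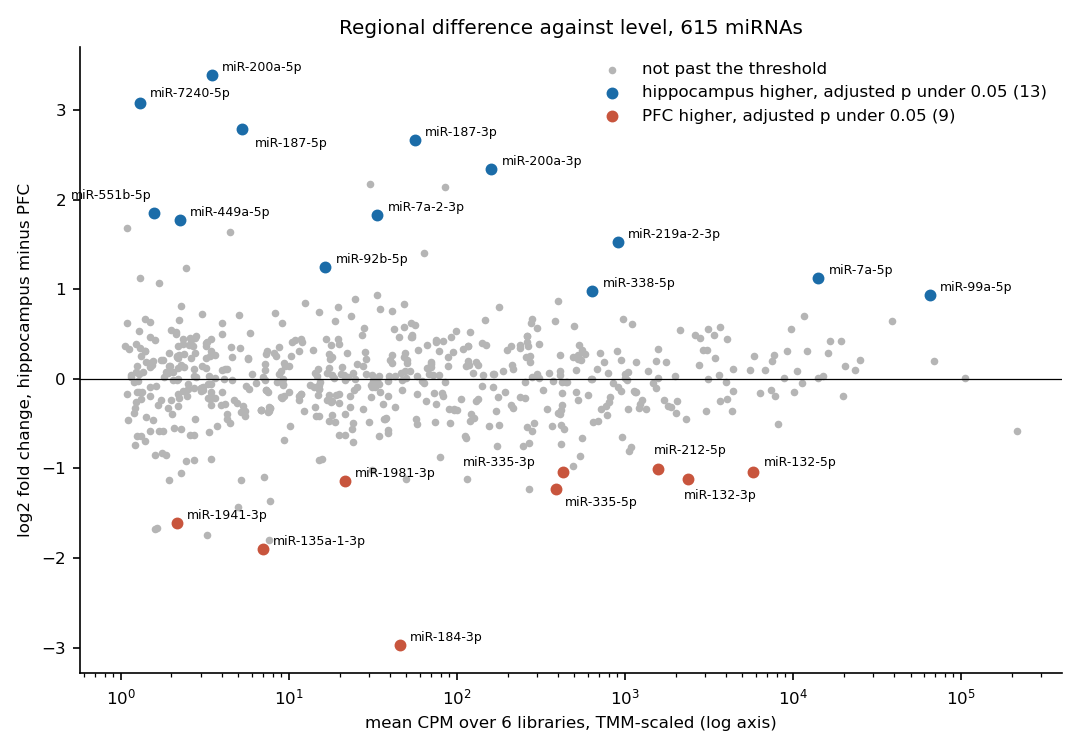
Each point is 1 of the 615 tested miRNAs, with its mean level over the 6 libraries in CPM on a log axis and its log2 fold change of hippocampus minus PFC. The 22 that passed the test spread over the whole range of levels, 10 of them at a mean of at least 100 CPM and 7 under 10 CPM.

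The activity-linked miRNAs of the miR-132 and miR-212 locus were lower in the hippocampus than in the PFC. Both hairpins lie within an intron of the noncoding transcript 1700016P03Rik, miR-132 at chr11:75173682-75173747 and miR-212 at chr11:75173388-75173478 (GRCm38, plus strand), and transcription of the locus is known to follow CREB and neuronal activity. miR-132-3p measured 1486, 1424 and 1584 CPM in the hippocampus and 3805, 3157 and 2760 CPM in the PFC. The highest hippocampal library stayed well under the lowest PFC library. The log2 fold change of miR-132-3p was -1.11 (SE 0.18, adjusted p = 0.0061 by edgeR), a 2.16-fold higher mean in the PFC. The other arm, miR-132-5p, measured 3509, 3273 and 4579 CPM against 6892, 9321 and 7192 CPM, again without overlap. It differed by -1.04 on the log2 scale (SE 0.19, adjusted p = 0.014 by edgeR). miR-212-5p measured 1222, 896.9 and 1003 CPM against 1447, 2302 and 2518 CPM, with PFC replicate 1 nearest to the hippocampus, and differed by -1.01 (SE 0.23, adjusted p = 0.035 by edgeR). miR-212-3p, which shares its seed with miR-132-3p, measured 77.2, 77.4 and 63.7 CPM against 245, 120 and 108 CPM. Its log2 fold change of -1.11 was as large as that of miR-132-3p, but its libraries of the PFC spread more (SE 0.31), and it did not pass (adjusted p = 0.091 by edgeR). All 4 arms of the locus therefore lay between -1.01 and -1.11. The miRNAs with this shared seed, miR-132-3p and miR-212-3p, summed to 1501 to 1648 CPM in the hippocampus and to 2868 to 4049 CPM in the PFC.

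The calls of this locus differed in how firmly they held. miR-132-3p passed without any 1 of the 6 libraries. miR-132-5p did not pass without PFC replicate 2 (adjusted p = 0.085), hippocampal replicate 1 (0.086) or hippocampal replicate 2 (0.0998). miR-212-5p did not pass without PFC replicate 2 (0.13) or hippocampal replicate 1 (0.086), 2 (0.20) or 3 (0.13), all by edgeR. miR-212-3p passed without PFC replicate 3 (0.011) and with DESeq2 (0.0084). It also passed with upper-quartile factors, without the low-count filter and with the replicate numbers as a block. Without PFC replicate 1, its highest library, its log2 fold change was -0.68 (0.17 by edgeR). The other activity-linked miRNAs of the list, the arms of miR-134, miR-384 and miR-188, had log2 fold changes between -0.41 and 0.059, and none of their 5 tested arms passed. The list of 9 tested arms had 3 calls, all higher in the PFC (1.46% over all tested miRNAs), and a median of -0.41 beside 0.012 over all tested miRNAs.

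miR-99a-5p was the most abundant miRNA that passed the test between the regions. It lies on chromosome 16 at chr16:77598936-77599000 in an intron of the noncoding transcript Mir99ahg, with let-7c-1 in the same intron at chr16:77599657-77599750, and miRNAs of this seed are known to act on mTOR. miR-99a-5p measured 95480, 71063 and 90306 CPM in the hippocampus and 46736, 41689 and 45986 CPM in the PFC, where the 3 libraries lay close to each other. It took 7.42% to 9.07% of the counts of a hippocampal library and 4.11% to 5.09% of those of a PFC library. The log2 fold change was 0.93 (SE 0.16, adjusted p = 0.0062 by edgeR), and without PFC replicate 2 it was 0.89 (adjusted p = 0.051). The miRNAs with the same seed differed less. miR-100-5p had a log2 fold change of 0.24 (SE 0.18, adjusted p = 0.54 by edgeR) and miR-99b-5p of 0.043 (SE 0.19, adjusted p = 0.95 by edgeR), and the libraries of both overlapped between the regions. The neighbouring let-7c-5p, which is also cut from a second hairpin, measured 14779.9, 14715 and 13580.0 CPM in the hippocampus against 6953, 7497 and 12116 CPM in the PFC. Its regions did not overlap, but PFC replicate 3 lay near the hippocampal values, and it did not pass (0.70, SE 0.21, adjusted p = 0.11 by edgeR). The arm specific to the neighbouring hairpin, let-7c-1-3p, differed by 0.74 (SE 0.30, adjusted p = 0.23 by edgeR). The 3 miRNAs with the seed of miR-99a-5p summed to 78350 to 103813 CPM in the hippocampus and to 47745 to 53622 CPM in the PFC, mostly from miR-99a-5p.

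miR-7, which is abundant in neurosecretory cells and has many binding sites on the circular RNA Cdr1as, was higher in the hippocampus. miR-7a-5p measured 23537, 16571 and 18123 CPM in the hippocampus against 8932, 7855 and 9982 CPM in the PFC. Each hippocampal library lay above every PFC library, and the log2 fold change was 1.12 (SE 0.18, adjusted p = 0.0061 by edgeR). miR-7b-5p, which shares the seed and differs outside it, measured 4962, 3598 and 4619 CPM against 2790, 2478 and 3574 CPM. The regions nearly touched, and its log2 fold change of 0.58 did not pass (SE 0.20, adjusted p = 0.16 by edgeR), except without PFC replicate 3 (0.041). miR-7a-5p is cut from 2 hairpins, miR-7a-1 in an intron of Hnrnpk at chr13:58392779-58392886 and miR-7a-2 outside genes at chr7:78888277-78888373, and its reads cannot be assigned to either. The 3p arms differ in sequence and can. miR-7a-2-3p measured 60.6, 46.5 and 49.2 CPM in the hippocampus against 9.53, 15.0 and 19.6 CPM in the PFC, a log2 fold change of 1.82 (SE 0.29, adjusted p = 0.0061 by edgeR). miR-7a-1-3p measured 85.8, 94.0 and 79.4 CPM against 83.6, 71.5 and 53.3 CPM, with overlap between the regions and a log2 fold change of 0.32 (SE 0.24, adjusted p = 0.54 by edgeR). Within a library, miR-7a-2-3p stood at 0.707, 0.495 and 0.619 of miR-7a-1-3p in the hippocampus and at 0.114, 0.210 and 0.368 in the PFC, so the balance of the copies was also apart between the regions. The 6 tested arms of the list of neuroendocrine miRNAs had a median log2 fold change of 0.45, with 2 calls higher in the hippocampus beside 2.11% of all tested miRNAs, and miR-375-3p, the member best known from endocrine cells, had a log2 fold change of -0.39 (adjusted p = 0.69 by edgeR).

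The 2 miRNAs with the smallest adjusted p were of moderate level. miR-187-3p, cut from a hairpin on chromosome 18 outside annotated genes, measured 93.3, 92.4 and 104 CPM in the hippocampus and 14.9, 15.9 and 14.8 CPM in the PFC. The spread within each region was small against the gap between them, and the log2 fold change was 2.67 (SE 0.22, adjusted p = 7.3e-05 by edgeR), a 6.36-fold higher mean. The other arm, miR-187-5p, measured 9.69, 8.99 and 9.06 CPM against 1.09, 1.59 and 1.33 CPM, which rested on 11 to 12 counts per PFC library and 73 to 89 per hippocampal library. Its log2 fold change was 2.79 (SE 0.28, adjusted p = 0.00018 by edgeR), close to that of the 3p arm.

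miR-184-3p showed the reverse pattern. This miRNA, best known from the cornea and lens and from neural progenitors, lies outside annotated genes at chr9:89802260-89802328. It measured 12.5, 8.28 and 10.3 CPM in the hippocampus and 74.8, 67.1 and 101 CPM in the PFC. Every PFC library lay far above the highest hippocampal one. The log2 fold change was -2.97 (SE 0.27, adjusted p = 0.00010 by edgeR), a 7.83-fold higher mean in the PFC. miR-184-3p and both arms of miR-187 passed in each alternative in which they were tested.

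The oligodendrocyte miRNAs were higher in the hippocampus. miR-219a and miR-338 are induced when oligodendrocyte precursors mature and promote their differentiation into myelinating cells. miR-219a-2-3p, from chr2:29845631-29845727, measured 1404, 1704 and 936 CPM in the hippocampus and 568, 418 and 412 CPM in the PFC. Hippocampal replicate 3 was the lowest of its region and still lay above all PFC libraries, and the log2 fold change was 1.53 (SE 0.25, adjusted p = 0.0061 by edgeR). The less abundant arm miR-219a-5p measured 87.4, 130 and 60.3 CPM against 43.3, 46.1 and 15.5 CPM. PFC replicate 3 was lower than the other PFC libraries. The log2 fold change of 1.41 was like that of the 3p arm, with a larger SE of 0.40, and it did not pass (adjusted p = 0.094 by edgeR). It passed with DESeq2 (0.0084), and by edgeR without the low-count filter (4.5e-05), with all 13 libraries (0.032) and without PFC replicate 1 (0.048). With the replicate numbers as a block it passed as well. The deposited rows of this arm differed between its hairpins, with 3362 counts in the one used and 1298 in the other over the 6 libraries. miR-338-5p, from a hairpin in an intron of Aatk at chr11:120014765-120014862, measured 885, 899.5 and 759 CPM against 463, 345 and 481 CPM. It differed by 0.98 on the log2 scale (SE 0.20, adjusted p = 0.020 by edgeR), and it did not pass without PFC replicate 2 (adjusted p = 0.085) or hippocampal replicate 1 (0.090), 2 (0.091) or 3 (0.052). miR-338-3p measured 521, 576 and 461 CPM against 362, 321 and 169 CPM, with a log2 fold change of 0.87 (SE 0.27, adjusted p = 0.12 by edgeR). It passed without the low-count filter (0.0097), without PFC replicate 1 (0.042) and with the replicate numbers as a block. The arm of the other miR-219a copy, miR-219a-1-3p, was at 3.53 to 4.65 CPM against 2.77 to 3.18 CPM and differed by 0.45 (adjusted p = 0.47 by edgeR).

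All 5 tested arms of the oligodendrocyte list were higher in each hippocampal library than in each PFC library, 2 of them passed the test, and the median log2 fold change was 0.98. Over all tested miRNAs, 12.7% did not overlap in this direction and 2.11% passed the test in it. The summed level of the 5 arms was 2220 to 3313 CPM in the hippocampus and 1081 to 1439 CPM in the PFC. miR-219b and miR-219c had no tested arm.

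The miR-200 family, which keeps epithelial cells in their state by acting on ZEB1 and ZEB2 and is also known from the olfactory system, split by locus. The hairpins of miR-200b, miR-200a and miR-429 lie within chr4:156053905-156055750, in introns of Ttll10, and those of miR-200c and miR-141 within chr6:124717914-124718390. miR-200a-3p measured 87.0, 413 and 301 CPM in the hippocampus and 24.4, 74.1 and 59.7 CPM in the PFC. Hippocampal replicate 1 was close to the highest PFC library, while the other hippocampal libraries were far above. The log2 fold change was 2.34 (SE 0.53, adjusted p = 0.033 by edgeR). miR-200a-5p measured 2.52, 6.46 and 9.93 CPM against 0.0993, 1.01 and 0.775 CPM, which is 20, 64 and 80 counts against 1, 7 and 7. Its log2 fold change of 3.39 (SE 0.64, adjusted p = 0.014 by edgeR) rested on fewer than 10 counts in each PFC library, and was 2.79 without PFC replicate 1. Both arms lost their call without PFC replicate 2, hippocampal replicate 2 or hippocampal replicate 3: the adjusted p of miR-200a-3p was then 0.085, 0.21 and 0.13, and that of miR-200a-5p was 0.051, 0.091 and 0.090.

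The neighbours on chromosome 4 had differences of like size and wider spread. miR-200b-3p measured 39.5, 206 and 168 CPM in the hippocampus and 15.9, 25.6 and 52.5 CPM in the PFC, with a log2 fold change of 2.14 (SE 0.57, adjusted p = 0.071 by edgeR). miR-429-3p measured 13.1, 71.0 and 64.3 CPM against 6.25, 14.3 and 12.4 CPM, with a log2 fold change of 2.18 (SE 0.54, adjusted p = 0.050 by edgeR, just over the threshold). In both, hippocampal replicate 1 fell within the range of the PFC. The locus on chromosome 6 had the opposite sign. miR-200c-3p, with the seed of miR-200b-3p and miR-429-3p, measured 4.40, 2.73 and 5.83 CPM in the hippocampus against 7.54, 8.66 and 16.9 CPM in the PFC, and its log2 fold change of -1.36 did not pass (SE 0.38, adjusted p = 0.087 by edgeR). miR-141-3p, with the seed of miR-200a-3p, measured 0.377, 0.707 and 1.24 CPM against 0.893, 2.89 and 3.77 CPM, at the level of the floor of 3 counts in hippocampal replicate 1. Its log2 fold change of -1.66 did not pass either (SE 0.58, adjusted p = 0.17 by edgeR). It passed only without the low-count filter (0.0094), without PFC replicate 1 (0.025) or with the replicate numbers as a block. Within a library, the chromosome 4 miRNAs summed to 29.2, 201 and 75.3 times the chromosome 6 miRNAs in the hippocampus and to 5.52, 9.86 and 6.02 times in the PFC. The ratios did not overlap, but they come from the same values as the opposite signs above and add no separate support. The chromosome 6 sums under them were only 3.43 to 7.08 CPM in the hippocampus. The list of olfactory and epithelial miRNAs, to which miR-203 also belongs, had 2 calls among 8 tested arms, both higher in the hippocampus (2.11% over all tested miRNAs), a median of 1.10 and a summed level of 327 to 875 CPM in the hippocampus and 228 to 322 CPM in the PFC, and miR-203-3p, a skin and epithelial miRNA, was at 168 and 161 CPM in the mean of the regions (log2 fold change 0.059, adjusted p = 0.94 by edgeR). Whether other tissue had a part in the differences of the miR-200 family was not tested.

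**Figure D3:**
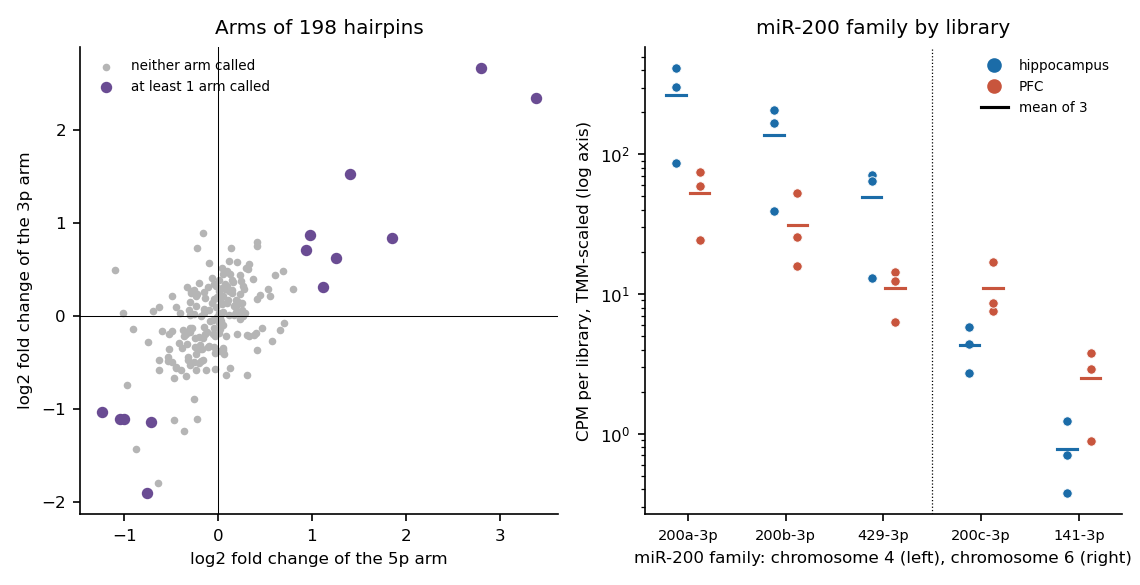
On the left, each of 198 hairpins with both arms tested is shown by the log2 fold changes (hippocampus minus PFC) of its 5p and 3p arms, with those that have at least 1 arm past the threshold in purple. On the right, the 3p arms of the miR-200 family are shown in CPM on a log axis for each hippocampal (blue) and PFC (red) library with a bar at the mean of 3, and the members on chromosome 4 are higher in the hippocampus in the mean while those on chromosome 6 are higher in the PFC.

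miR-335, which lies in an intron of the paternally expressed imprinted gene Mest (chr6:30741299-30741396), was higher in the PFC through both arms. miR-335-5p measured 164, 318 and 216 CPM in the hippocampus and 486, 526 and 629 CPM in the PFC, without overlap, a log2 fold change of -1.23 (SE 0.26, adjusted p = 0.022 by edgeR). miR-335-3p measured 228, 335 and 279 CPM against 482, 526 and 721 CPM, a log2 fold change of -1.04 (SE 0.23, adjusted p = 0.029 by edgeR). Hippocampal replicate 2 had the highest level of its region in both arms. miR-335-5p did not pass without PFC replicate 2 (adjusted p = 0.085) or hippocampal replicate 1 (0.098) or 3 (0.12), and miR-335-3p did not pass without PFC replicate 2 (0.085) or hippocampal replicate 1 (0.16), 2 (0.081) or 3 (0.12). None of the other imprinted miRNAs passed. The arms of miR-296 and miR-298, near Gnas, had log2 fold changes between -0.067 and 0.45. In the imprinted Dlk1-Dio3 region, which holds a large group of brain miRNAs, 10 arms antisense to Rtl1, 16 in the Meg3 and Rian part and 64 from miR-379 to miR-410 were tested, and none passed. The medians of these 3 groups were 0.099, 0.043 and -0.17.

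The remaining calls were of low level. miR-135a-1-3p, from chr9:106154124-106154213, measured 2.77, 2.02 and 4.10 CPM in the hippocampus and 8.83, 11.1 and 13.2 CPM in the PFC, with 20 to 33 counts against 77 to 119. Its log2 fold change was -1.90 (SE 0.32, adjusted p = 0.0062 by edgeR), and without hippocampal replicate 2 it was -1.68 (adjusted p = 0.058). The guide strand of this hairpin, miR-135a-5p, which a second copy also gives, measured 575, 841 and 997 CPM against 1346, 1439 and 1291 CPM. The regions did not overlap, and the log2 fold change of -0.76 did not pass (SE 0.22, adjusted p = 0.094 by edgeR). The arm of the second copy, miR-135a-2-3p, overlapped between the regions (log2 fold change -0.36, SE 0.39, adjusted p = 0.69 by edgeR). miR-135b-5p, from a separate gene of the family, had a log2 fold change of -0.97 (SE 0.31, adjusted p = 0.12 by edgeR).

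Among the other low calls, miR-1981-3p (intron of Marc2) and miR-1941-3p (antisense to an intron of Krt80) were higher in the PFC, with log2 fold changes of -1.14 and -1.60. miR-92b-5p, whose other arm is known from cortical progenitors, miR-551b-5p (intron of Egfem1), miR-7240-5p (antisense to an intron of Mast3) and miR-449a-5p (intron of Cdc20b, known from multiciliated cells) were higher in the hippocampus, with log2 fold changes of 1.25, 1.85, 3.08 and 1.77. miR-1981-3p was at 12.1 to 15.8 CPM in the hippocampus and 27.3 to 32.1 CPM in the PFC, and miR-92b-5p at 23.2 ± 2.58 CPM (SD, n = 3) and 9.74 ± 2.26 CPM (SD, n = 3). The other levels were smaller. miR-449a-5p was at 2.52 to 4.24 CPM in the hippocampus and 0.665 to 1.59 CPM in the PFC, miR-1941-3p had 8 to 10 counts per hippocampal library, and miR-551b-5p and miR-7240-5p had 3 to 8 and 0 to 6 counts per PFC library. The fold change of miR-7240-5p rests on 6, 0 and 1 counts in the PFC libraries, and on the log2 scale it ranged from 2.65 without PFC replicate 2 to 4.89 without PFC replicate 1, so its place among the largest differences is uncertain. Each of these 6 calls had an adjusted p between 0.020 and 0.035 by edgeR and was lost in at least 3 of the 6 fits that left out a library, with adjusted p between 0.059 and 0.19. All 6 were lost without PFC replicate 2, and none changed sign in any of the 6 fits. Just outside the threshold, at an adjusted p of 0.050 by edgeR, were miR-7080-3p (log2 fold change 1.64), miR-429-3p and miR-1298-5p (0.80).

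The arms of a hairpin tended to differ alike. Of the 198 hairpins with both arms tested, 138 had the same sign in both, and Pearson's r of the log2 fold changes across hairpins was 0.69 and Spearman's rho 0.54, as a description, since the arms share libraries and locus. In the 41 hairpins with both arms at 100 CPM or more, 32 had the same sign and r was 0.78. All 13 hairpins with at least 1 called arm and both tested had the same sign in both arms, and in 4 of them, miR-132, miR-187, miR-200a and miR-335, both arms were called. Among these 13, the gap between arms was widest for miR-135a-1 (-0.76 and -1.90).

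Some copies of a miRNA at separate loci could be told apart by an arm in which they differ. Of 12 pairs of such arms, the log2 ratio between the copies did not overlap between the regions in 6. For the level of single miRNAs, 12.7% of all tested did not overlap with the hippocampus higher and 8.94% with the PFC higher. No such share was computed for ratios of other pairs of arms. The gap was small for miR-138, whose log2 ratios were 0.81 to 1 in the hippocampus and 0.31 to 0.68 in the PFC. The let-7a and let-7c copies were left out, since let-7a-1-3p and let-7c-2-3p have the same sequence and their reads cannot be assigned to a locus. Beside miR-7a and miR-135a, the 6 pairs included miR-24. It comes from a cluster with miR-23a and miR-27a on chromosome 8 (chr8:84208518-84208921) and from one with miR-23b and miR-27b on chromosome 13 (chr13:63300484-63301275). miR-24-2-5p, from chromosome 8, measured 299, 289 and 350.3 CPM in the hippocampus against 563, 503 and 483 CPM in the PFC, a log2 fold change of -0.72 (SE 0.19, adjusted p = 0.067 by edgeR). miR-24-1-5p, from chromosome 13, measured 182, 149 and 154 CPM against 129, 116 and 121 CPM, a log2 fold change of 0.41 (SE 0.21, adjusted p = 0.36 by edgeR). The copies thus lay apart in opposite directions, although neither passed. The neighbours on chromosome 8 were also lower in the hippocampus in all libraries, miR-23a-3p with a log2 fold change of -0.66 (SE 0.21, adjusted p = 0.12 by edgeR) and miR-27a-3p with -0.44 (SE 0.16, adjusted p = 0.20 by edgeR). Those on chromosome 13 overlapped, with 0.31 for miR-27b-3p and -0.045 for miR-23b-3p. The shared arm miR-24-3p differed by -0.19 (adjusted p = 0.58 by edgeR).

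The miRNAs at the top of both regions were largely the same. miR-128-3p, a neuron-enriched miRNA, was first in both and took 14.9% to 19.0% of the counts of hippocampal libraries and 21.7% to 28.9% of those of PFC libraries. Its deposited rows differed between its hairpins, and with the lower row, miR-128-2, the shares would be 9.76% to 12.2% and 14.6% to 20.3%. It measured 183534, 142431 and 194499 CPM in the hippocampus and 199219, 292406 and 284804 CPM in the PFC, where replicate 1 was close to the hippocampus. The log2 fold change of -0.58 did not pass (SE 0.18, adjusted p = 0.12 by edgeR). It passed without PFC replicate 1 (adjusted p = 0.033), without the low-count filter (0.033) and with all 13 libraries in the fit (0.044), all by edgeR. miR-218-5p had the opposite sign, at 46559, 41114 and 54889 CPM against 30049, 36818 and 24198 CPM (log2 fold change 0.65, SE 0.19, adjusted p = 0.094 by edgeR). It passed without the low-count filter (0.022) and with all 13 libraries in the fit (0.034). miR-9-5p, a miRNA of neural progenitors and neurons, was second in both regions, at 106287 ± 12573 CPM (SD, n = 3) in the hippocampus and 105347 ± 6583 CPM (SD, n = 3) in the PFC, and its log2 fold change was 0.013 (SE 0.14). miR-26a-5p, miR-125b-5p, miR-29a-3p, let-7g-5p and miR-126a-3p, the other miRNAs among the first 8 of a region beside miR-99a-5p, had log2 fold changes between -0.20 and 0.42, and none passed, while let-7g-5p passed without PFC replicate 3 (adjusted p = 0.047 by edgeR).

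Of the 17 tested arms of neuronal miRNAs, none passed, with 12 negative and a median of -0.23 beside 0.012 over all tested miRNAs. Besides miR-128-3p, the arms of miR-129 were lower in the hippocampus in the mean, miR-129-5p with a log2 fold change of -0.36 (SE 0.16) and miR-129-1-3p with -1.23 (SE 0.49). For miR-129-1-3p, PFC replicate 1 held 772 CPM against 182 and 180 CPM in the other PFC libraries and 138 to 175 CPM in the hippocampus. miR-124-3p, a neuron-specific miRNA, had a log2 fold change of -0.13 (SE 0.16, adjusted p = 0.74 by edgeR).

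**Figure D4:**
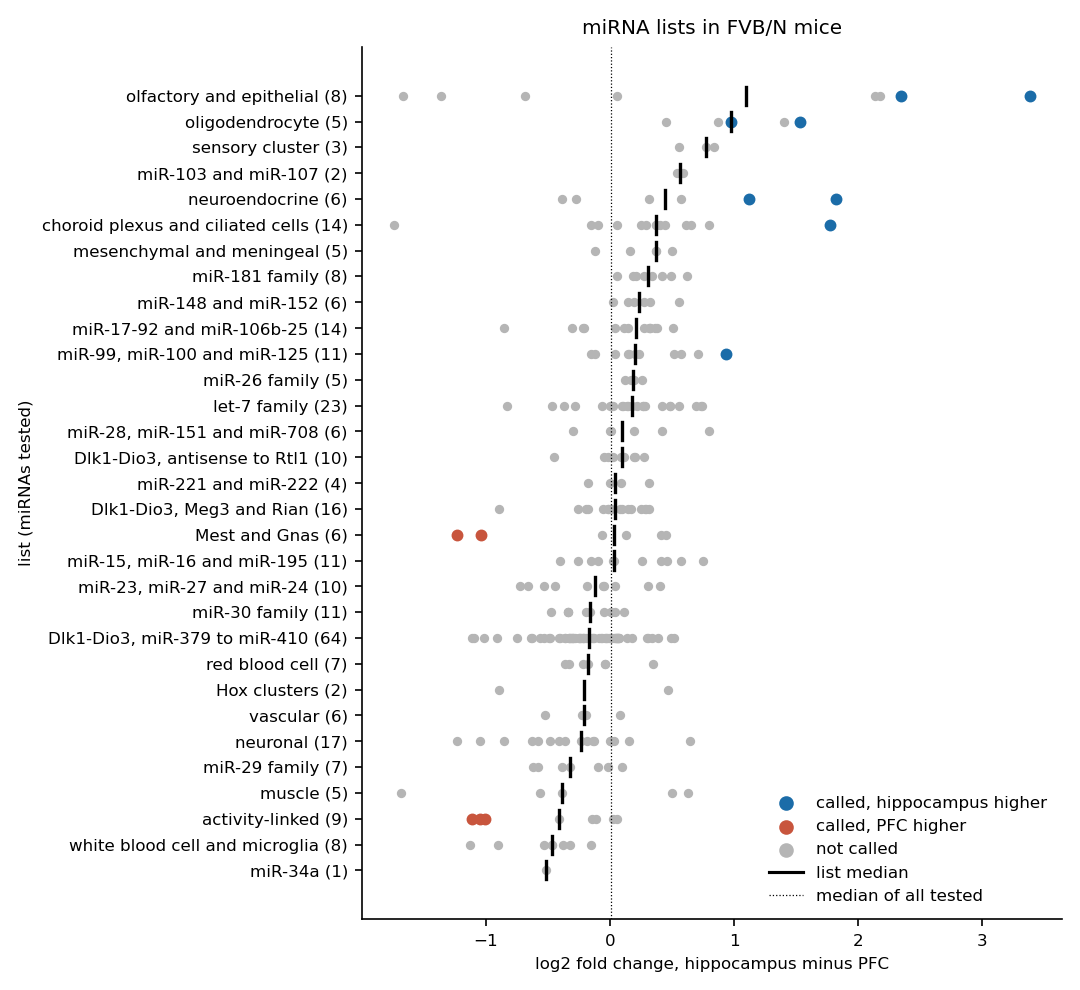
Each row is a list of miRNAs with the number of tested arms, and each point is the log2 fold change of 1 arm between FVB/N hippocampus and PFC, with called arms in blue (hippocampus higher) or red (PFC higher), a bar at the median of the list and a dotted line at the median of all 615 tested miRNAs. Of the 31 lists, 7 hold a called arm.

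Lists of other cell types were examined in the same way, and 24 of 31 lists held no call. The miRNAs of choroid plexus and ciliated cells had 1 call of 14 tested arms (miR-449a-5p), higher in the hippocampus, beside 2.11% of all tested miRNAs. Their median was 0.37, and their summed level was 1634 to 2271 CPM in the hippocampus and 1059 to 1468 CPM in the PFC. miR-204-5p, the most abundant of them and typical of choroid plexus, measured 1700, 1113 and 1181 CPM against 1098, 718 and 799 CPM (log2 fold change 0.61, SE 0.23, adjusted p = 0.21 by edgeR). miR-449b, miR-449c and miR-1911 had no tested arm. The 8 tested arms of white blood cells and microglia were all negative, with a median of -0.47 beside 0.012 over all tested miRNAs, and none passed. They include both arms of miR-142a, miR-150 and miR-223, so their signs are not all separate observations. Their summed levels were 909 to 1019 CPM in the hippocampus and 1069 to 1393 CPM in the PFC. miR-142a-3p, a marker of blood cell lineages, had a log2 fold change of -0.47 (adjusted p = 0.34 by edgeR). The medians of the red blood cell (7 arms), vascular (6), mesenchymal and meningeal (5) and muscle (5) lists were -0.17, -0.21, 0.37 and -0.39, with no call. The mesenchymal list holds miR-199a-3p and miR-199b-3p, which have the same sequence, and with this sequence counted once its median over 4 arms was 0.26. The part of these cell types in the differences of other miRNAs was not tested.

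Among the large families, the 23 tested arms of let-7, an inhibitor of growth genes, had a median of 0.18 beside 0.012 over all tested miRNAs. None was called, and 18 of them were positive. With the sequence shared by let-7a-1-3p and let-7c-2-3p counted once, 17 of 22 were positive and the median was 0.16. let-7c-5p and let-7b-5p had log2 fold changes of 0.70 and 0.56, and the more abundant let-7g-5p and let-7f-5p of 0.42 and 0.14. All 8 tested arms of the miR-181 family were positive, with a median of 0.31, but no single arm passed (miR-181a-5p 0.42, SE 0.15, adjusted p = 0.17 by edgeR). The miRNAs of its seed summed to 23887 to 26417 CPM in the hippocampus and 17785 to 19192 CPM in the PFC without overlap. Sums of other seeds without a called member also did not overlap, such as that of miR-26a-5p and miR-26b-5p (69128 to 85993 CPM against 61753 to 67754 CPM). miR-103-3p and miR-107-3p, which share a seed and regulate metabolism, had log2 fold changes of 0.54 and 0.59 (both SE between 0.20 and 0.23, adjusted p = 0.21 and 0.22 by edgeR). The medians of the miR-29 (7 arms), miR-30 (11) and miR-26 (5) families were -0.32, -0.16 and 0.18.

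The same contrast in TgR mice, which shares no library with that of FVB/N mice, gave the same sign for all 20 of the 22 calls that could be tested there. Of these 20, 11 also passed in TgR mice, where 86 of 633 tested miRNAs passed (13.6%), 42 of them higher in the hippocampus (6.64%) and 44 in the PFC (6.95%). Over the 610 miRNAs tested in both, 68.0% had the same sign and 13.8% passed in TgR mice, and Pearson's r across miRNAs was 0.56 and Spearman's rho 0.50, as a description. Both arms of miR-187 (log2 fold changes in TgR mice of 2.80 and 3.02), miR-219a-2-3p (2.26), miR-338-5p (1.29), miR-7a-2-3p (1.28), miR-7240-5p (1.89), miR-132-5p (-0.86), miR-212-5p (-0.73), miR-335-3p (-0.80), miR-135a-1-3p (-1.32) and miR-1981-3p (-0.75) passed in both lines by edgeR. miR-219a-5p and miR-338-3p, which had not passed in FVB/N mice, passed in TgR mice with log2 fold changes of 2.22 and 1.39 (adjusted p = 0.00030 and 0.0056 by edgeR), as did miR-128-3p with -0.68 (0.0066) and miR-24-2-5p with -0.70 (0.0056).

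Other calls of FVB/N mice had smaller values in TgR mice. miR-99a-5p had a log2 fold change of 0.092 (adjusted p = 0.69), miR-7a-5p of 0.42 (0.16), miR-132-3p of -0.49 (0.14) and miR-335-5p of -0.23 (0.47), and miR-184-3p had -1.80 with an adjusted p of 0.11, all by edgeR. The difference between the lines was tested directly, over all 13 libraries as the regional difference of FVB/N mice minus that of TgR mice. Of 647 tested miRNAs, 3 passed (0.464%), all negative, and 55 had an unadjusted p under 0.05. None of the 22 calls was among the 3. For miR-99a-5p the difference was 0.82 (SE 0.19, adjusted p = 0.070 by edgeR), and for miR-7a-5p, miR-132-3p, miR-335-5p and miR-184-3p the adjusted p was 0.38, 0.51, 0.24 and 0.77. A gap between the lines was thus not shown for these miRNAs at this number of mice. The 3 that passed were miR-34b-3p, miR-34c-5p and miR-34c-3p, from a cluster active in multiciliated cells, which did not pass between the regions of FVB/N mice (log2 fold changes 0.37, 0.66 and -0.15).

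**Figure D5:**
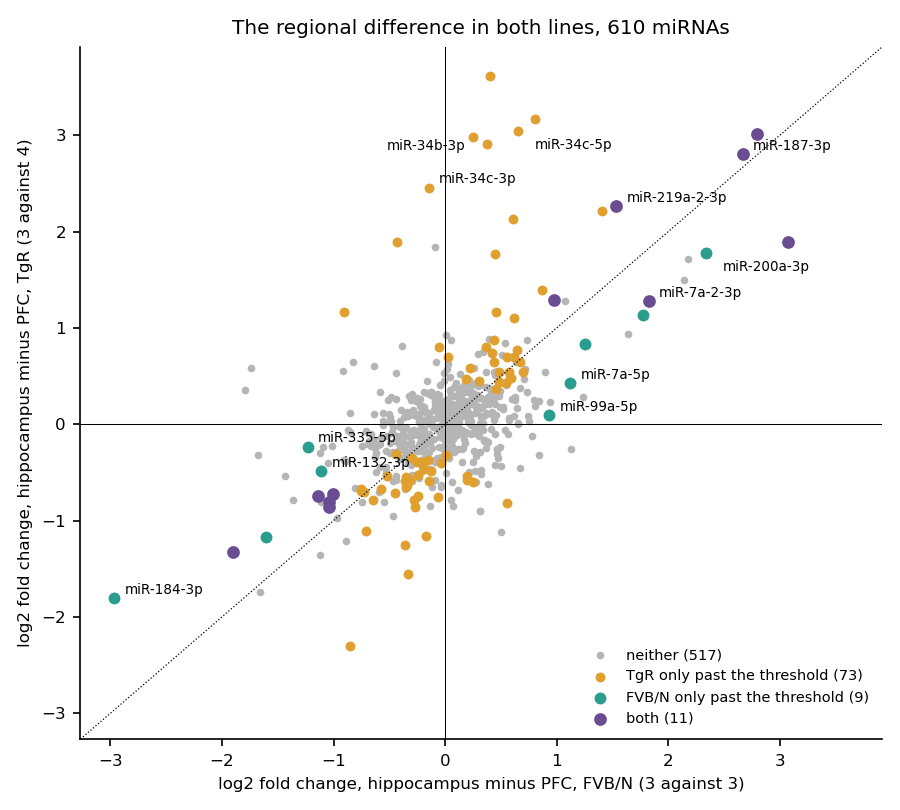
Each point is 1 of the 610 miRNAs tested in both lines, with its log2 fold change of hippocampus minus PFC in FVB/N mice (3 against 3 libraries) and in TgR mice (3 against 4), and the dotted line marks equal values. The 20 calls of FVB/N mice tested in TgR mice (9 green, 11 purple) lie in the quadrants of equal sign, while the miR-34b and miR-34c arms stand high in TgR mice alone.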

How the data were processed

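RNA of 1 mouse per library was extracted with the miRNeasy kit, and small RNA libraries were made from 300 ng with the NEBNext kit (RIN 8.6 to 9.3 over all libraries). Read quality was checked by the authors in FastQC, miRExpress with its default parameters matched the reads to miRBase, and the deposited values are raw counts per hairpin and mature miRNA pair in each library, without normalization. Pairs not listed were taken as 0. A mature miRNA listed at several hairpins (69 in these 6 libraries, 58 of them with totals within 5%) was kept as its hairpin of highest total, so that it enters once. The other 11 had rows further apart. Names with the same matched sequence stayed separate (let-7a-1-3p and let-7c-2-3p, miR-199a-3p and miR-199b-3p), so their reads enter the tests, list sums and seed sums under both names. miR-467a-3p and miR-467d-3p had equal log2 fold changes (-0.12), as had miR-669a-3p and miR-669o-3p (-0.17). These names also entered the tests and the comparison of arms separately.

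The 6 FVB/N libraries were fitted with edgeR 4.0.16 in R 4.3.3 (TMM, filterByExpr with a minimum of 10 counts, quasi-likelihood test, Benjamini-Hochberg adjustment over all tested miRNAs, threshold 0.05). CPM were computed here. Each SE was taken from the F statistic and the size of the estimated change. The TgR contrast was fitted by itself and the difference between lines over all 13 libraries. On simulated counts with 200 changed miRNAs among 603 tested, 66% of those changed 2-fold and 98% of those changed 4-fold were recovered in the FVB/N design, with 2.38% false calls. In the TgR design 78% and 98% were recovered of those among 613, and for the difference between lines 47% and 93% of those among 637. The simulation gave every miRNA the same spread and changed a larger share of them than passed in the data. These rates therefore need not hold for the data.

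Described in full were the called miRNAs with regions that did not overlap, up to 12 per direction at a mean of at least 100 CPM and up to 5 per direction under that, their other arms and same-seed members, the 8 most abundant miRNAs of each region, and the listed miRNAs. miR-7a-2-3p, miR-92b-5p, miR-449a-5p, miR-7080-3p and the arms of miR-135a and miR-135b other than the called one were named after their values were seen. The members and lists were chosen with earlier results of these data known, and a list is described by counts and its median, without a test. Pairs of libraries of a region differed beyond counting noise, so none was counted as a duplicate. Positions are those of the GENCODE annotation of GRCm38, found for 612 of the 615 tested miRNAs, and mature sequences were matched for 519. Alternatives were DESeq2 1.42.0, other scalings, filters, hairpin rows and thresholds, a minimum fold of 1.5 (glmTreat), leaving out each library, a replicate block, and all 13 libraries in one fit.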

Additional observations from a re-analysis of the deposited data

Results flagged for a closer look

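The regional difference was not the same in both lines for 3 miRNAs, by the test of the difference itself. For miR-34b-3p the regional difference of FVB/N mice minus that of TgR mice was -2.56 on the log2 scale (SE 0.37, adjusted p = 0.0046 by edgeR over 13 libraries). It measured 26.3, 17.8 and 17.2 CPM in FVB/N hippocampus, 20.2, 12.3 and 14.3 CPM in FVB/N PFC, 138, 79.2 and 149.7 CPM in TgR hippocampus and 13.4 to 18.3 CPM in TgR PFC. Only the TgR hippocampus stood apart. For miR-34c-5p the difference was -2.42 (SE 0.38, adjusted p = 0.0071 by edgeR), with 117 to 231 CPM in FVB/N hippocampus and 566 to 1242 CPM in TgR hippocampus. For miR-34c-3p it was -2.63 (SE 0.49, adjusted p = 0.025 by edgeR), with 3.13 to 5.23 CPM in FVB/N hippocampus and 10.1 to 25.6 CPM in TgR hippocampus. miR-34b-3p and miR-34c-5p passed in each fit that left out 1 of the 13 libraries. miR-34c-3p did not pass without FVB/N PFC replicate 1 (adjusted p = 0.12), FVB/N hippocampal replicate 2 (0.069) or 3 (0.094), TgR PFC replicate 4 (0.062) or TgR hippocampal replicate 1 (0.064) or 3 (0.088), all by edgeR. Of the 14 tested arms of choroid plexus and ciliated cells, 8 passed between the regions of TgR mice, all higher in the hippocampus, with a median log2 fold change of 1.98, against 1 call and a median of 0.37 in FVB/N mice. Over all tested miRNAs, 6.64% were called higher in the hippocampus of TgR mice and 2.11% in FVB/N mice, and the difference between the counts was not tested. The part of these cells in the difference was not tested.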

How the results depend on the processing

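The number of miRNAs called between FVB/N hippocampus and PFC was 22. It was 34 with DESeq2, 52 without a low-count filter, 14 of 288 tested when the mean normalized count had to reach 300, 35 at an adjusted p under 0.1, 7 against a minimum change of 1.5-fold and 49 with all 13 libraries in one fit, and it ranged from 8 to 51 when a library was left out (8 without PFC replicate 2, 9, 12 and 13 without hippocampal replicate 2, 3 and 1, 51 without PFC replicate 3). In TgR mice it was 86, and 134 at an adjusted p under 0.1, 16 against a minimum change of 1.5-fold and 43 to 125 when a library was left out (43 without TgR PFC replicate 3, 45 without TgR hippocampal replicate 1, 56 without TgR PFC replicate 1). With library size only it was 107, 70 higher in the hippocampus and 37 in the PFC, against 42 and 44. For the difference between lines it was 3, and 13 with DESeq2, 16 without a filter, 6 at an adjusted p under 0.1, 5 with the replicate block and 2 to 8 when a library was left out (5 without TgR PFC replicate 2 or FVB/N hippocampal replicate 1, 8 without TgR hippocampal replicate 2). Upper-quartile factors moved the median of all FVB/N log2 fold changes from 0.012 to -0.088, and library size only moved it from 0.027 to 0.13 in TgR mice and from -0.027 to -0.15 for the difference between lines.

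None of the 22 calls changed sign in any alternative, and 5 of them passed in each alternative in which they were tested (miR-184-3p, miR-187-3p, miR-187-5p, miR-219a-2-3p and miR-7a-2-3p). When a library was left out, 7 passed in all 6 fits, 2 failed in 1, 5 in 3 and 8 in 4. Of 17 other miRNAs followed, 3 near 0 changed sign: miR-29a-3p (0.096) was -0.011 without PFC replicate 3 and -0.0086 without hippocampal replicate 2, miR-99b-5p (0.043) was -0.068 with upper-quartile factors and ranged from -0.11 to 0.17 when a library was left out (-0.094 without PFC replicate 1, -0.11 without hippocampal replicate 1), and miR-9-5p (0.013) was -0.012 with DESeq2 and with its size factors in edgeR, -0.018 with library size only, -0.091 with upper-quartile factors, -0.0087 with a mean of at least 300, and ranged from -0.038 to 0.11 when a library was left out (-0.035 without PFC replicate 2, -0.038 without hippocampal replicate 1 and 2). Of 93 list medians under other scalings, 7 moved by more than the spread between libraries, all with upper-quartile factors.

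With the replicate numbers of the titles as a block, 32 miRNAs passed in FVB/N mice and 103 in TgR mice. The labels do not say whether libraries of the same number came from the same mouse, so the numbers were not taken as pairs. Deviations of same-numbered libraries correlated at 0.13, 0.042 and 0.20 in FVB/N mice, and those of other pairs at -0.24 to 0.12. Each library except hippocampal replicate 2 correlated best with its own number, and that one correlated at 0.12 with PFC replicate 1. These values do not decide whether the numbers stand for pairs. The numbers in the deposited names of the FVB/N PFC also differ from those of the titles. Depth limited the 3 calls with fewer than 10 counts in every PFC library (miR-200a-5p, miR-551b-5p and miR-7240-5p).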
